A study of Homo sapiens with 16 samples.

Results

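The transcripts described here encode the AP-1 subunits FOS, FOSB, FOSL1, FOSL2, JUN, JUNB and JUND and the small MAF factors MAFF, MAFG and MAFK, 10 genes in all. Members were selected by gene symbol in the platform annotation, which gave 17 probe sets for 9 of the 10 symbols, out of 22283 probe sets and 11963 named genes on the array. No probe set carried the symbol MAFK, so MAFK was not analysed here. The family was chosen from earlier results of these same arrays, in which several members were called between 6 h and 12 h and FOSL2 had a large difference between the viruses at 6 h that was not called. The differences and adjusted p-values below therefore describe these arrays and are not independent evidence about the family.

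AP-1 is a dimeric transcription factor in which a JUN protein pairs with another JUN, with a FOS protein or with an ATF protein through a leucine zipper, and binds short palindromic DNA sites. Many of its genes are immediate early genes, whose transcripts appear quickly and briefly after growth factors, stress or infection, and hepatocytes use JUN and its relatives in regeneration and stress survival. The small MAF proteins have the same kind of DNA-binding zipper but no activation domain of their own. They repress as homodimers and activate when paired with NRF2 (encoded by NFE2L2) and related factors on antioxidant response elements.

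The cells were HepG2, an established human hepatoma line, and all of them had received a recombinant adenovirus. One virus carried LacZ, the beta-galactosidase control, and the other carried GPI-PLD, a phospholipase D that cleaves glycosylphosphatidylinositol anchors. RNA was taken after 6 h or 12 h, with 4 arrays for each of the 4 combinations of virus and time, 16 in all. No array came from cells without virus, so a difference between the times holds whatever the virus and the culture did over those hours. The labels name neither the promoter of the transgenes nor the viral dose, and nothing in them ties an array to its own culture. The p-values therefore measure only the spread between these arrays, which may be technical.

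Array medians lay between 304.5 and 377.6 on the linear MAS5 signal scale. The mean correlation of an array with the others of its group was 0.937 to 0.939 in GPI-PLD cells at 12 h and 0.948 to 0.958 in the other groups. The hepatocyte markers were bright, with a mean signal of 85990 for ALB and 72933 for AFP. All 8 passed the filter on dim genes (a signal of 188), as did 6 of 13 markers of fibroblasts, leukocytes and endothelial cells. Those that passed were LYZ with a mean of 9632, COL1A1 (774), CD3E (434), COL1A2 (367), DCN (365) and PECAM1 (286). Among the rest, PTPRC (111), VWF (65.5), CDH5 (20.2) and LUM (8.44) were dim. The summed leukocyte markers, mostly LYZ, ran from 6136 to 12157 in LacZ cells at 6 h and from 10129 to 13961 at 12 h, and in GPI-PLD cells from 8359 to 11163 and from 8718 to 12604, and their part in the results below was not tested. GPLD1, the gene of the GPI-PLD enzyme, had group means of 249 to 306.8 on one of its brighter probe sets and 260.5 to 328.3 on the other, with the viruses within 1 SD of each other at each time on these sets. Its remaining sets had group means under 188. On the dimmest, GPI-PLD and LacZ cells had means of 71.6 (SD 31.3) and 25.1 (SD 14.1) at 6 h. At 12 h these were 37.9 and 32.9. Whether those probes match the transferred sequence was not tested, and group names here are those of the labels. In a bulk sample, fewer cells that express a gene cannot be told apart from less RNA per cell.

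Promoters of 3 members are shown because MAFF and JUN were higher at 12 h in the cells of both viruses while JUND, which carries the same cAMP response element as MAFF, differed little with time. The sequences are from RefSeq, build GRCh38.p14, written 5′ to 3′ on the strand of the gene and ending just before its annotated start, with motif matches in capitals. MAFF lies on the plus strand at chr22:38201869-38201993, and JUN on the minus strand at chr1:58784048-58784172. The JUND stretch is on the minus strand at chr19:18281623-18281872 and is longer so that it holds the most upstream match.
MAFF: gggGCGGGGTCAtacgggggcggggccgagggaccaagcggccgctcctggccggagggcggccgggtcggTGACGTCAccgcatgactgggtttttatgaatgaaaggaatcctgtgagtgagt
JUN: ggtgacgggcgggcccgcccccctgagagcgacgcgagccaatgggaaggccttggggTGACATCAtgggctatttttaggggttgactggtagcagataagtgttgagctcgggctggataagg
JUND: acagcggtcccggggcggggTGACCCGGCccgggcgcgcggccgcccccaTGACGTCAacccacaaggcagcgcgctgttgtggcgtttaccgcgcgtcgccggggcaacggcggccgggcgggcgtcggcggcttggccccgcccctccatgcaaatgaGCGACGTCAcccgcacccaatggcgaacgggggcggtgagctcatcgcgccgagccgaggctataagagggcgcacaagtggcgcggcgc

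RefSeq windows of 300 bases (250 before and 50 after a start) were found for 8 of the 10 symbols, 9 windows in all since MAFF had 2. FOSL1 and MAFK had none in the table. Both strands were searched. The cAMP response element TGACGTCA, bound by CREB and ATF proteins, was in 2 of the 9 windows, one of MAFF (54 to 47 bases before the start) and that of JUND (200 to 193 bases before), and in 1.85% of all 35116 windows. Only exact matches were counted. Similar stretches were not counted as this element. Among them were TGACGTTT in the FOS, TGACGTAA in the FOSB and TGACGTGA in the FOSL2 window. TGACATCA in the JUN and CGACGTCA in the JUND window were others. TGACNNNGC, the core of the antioxidant response element, was in the same MAFF and JUND windows and in 13.3% of all windows. JUND held 2 matches of it and MAFF 1. The AP-1 site TGACTCA was found in the FOSL2 window alone, just after the start, against 4.95% of all windows. TGATGNAAN, the C/EBP and ATF composite site, and the CArG box of SRF were in 0 of the 9 windows, against 3.61% and 1.29% of all. TGACATCA, a variant AP-1 site known from the JUN promoter and added to the search after the windows had been seen, was in the JUN window alone of the 9 and in 2.61% of all. These matches describe letters in a window and no binding was measured. Sites more than 250 bases before a start lay outside the windows and were not searched. A count of 0 therefore does not show that a gene lacks the site.

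**Figure D1:**
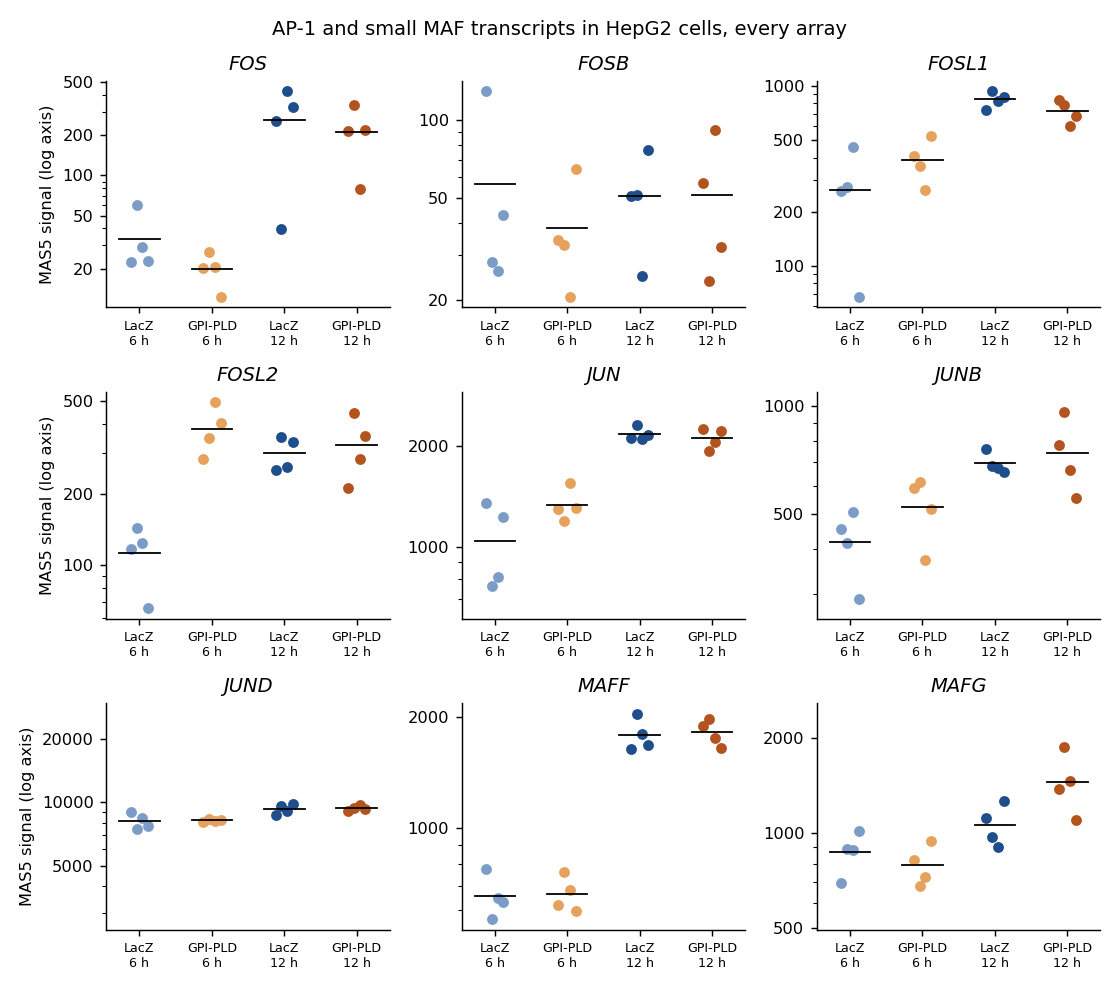
MAS5 signal (log axis) of the 9 members on every array, each on the probe set with its highest mean; points are arrays, black bars group means, colours the 4 groups of virus and time (4 arrays each). MAFF separates the times in both viruses, JUND stays between 7446 and 9827, and FOSL2 is lowest in LacZ cells at 6 h.

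Signals were compared as log2(signal + 63), which understates changes of dim genes, in 1 limma fit of 8102 genes with Benjamini-Hochberg adjustment, and a gene was called at an adjusted p under 0.05. Differences are given with standard errors, and fold values are ratios of (signal + 63), not of the signals themselves. Of the 9 genes on the array 7 passed the filter. FOS and FOSB did not, and their values come from a second fit, which took in each of the 22215 non-control probe sets. Between 6 h and 12 h, 5 of the 7 tested members rose in LacZ cells (FOSL1, MAFF, FOSL2, JUN and JUNB) and 3 of 7 in GPI-PLD cells (MAFF, MAFG and JUN). In LacZ cells 3.64% of all tested genes were called higher at 12 h and 3.25% lower, and in GPI-PLD cells 4.6% higher and 5.07% lower, with 0 of the 7 members lower in either. Because the family was picked with this contrast in view, those shares stand beside the counts and nothing is read from them. The 7 members had a median difference of 1.06 under LacZ and of 0.64 under GPI-PLD, beside 0.01 in each over all tested genes. The LacZ count was 3 without LacZ 6 h replicate 4, LacZ 12 h replicate 2 or LacZ 12 h replicate 4, when FOSL2 and JUNB no longer passed.

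JUN encodes c-JUN, the AP-1 subunit that JNK activates. On its brightest probe set the LacZ 6 h arrays read 1353, 766, 814 and 1231 (mean 1041 ± 295, SD) and the LacZ 12 h arrays 2108, 2314, 2097 and 2163. The GPI-PLD arrays read 1300, 1198, 1552 and 1306 at 6 h and 2255, 1936, 2052 and 2227 at 12 h. Every 12 h array stood above every 6 h array in both viruses. JUN rose 2.08-fold in LacZ cells (log2 1.06 ± 0.14, limma adjusted p 2.72e-05) and 1.56-fold in GPI-PLD cells (0.64 ± 0.14, limma adjusted p 0.00508). Both calls held in each of the 28 alternative settings, with adjusted p at or below 0.0358.

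JUNB, a JUN relative with weaker activating activity that can oppose c-JUN, read 455, 415, 509 and 291 in LacZ cells at 6 h and 761, 681, 674 and 657 at 12 h, with no overlap. In GPI-PLD cells it read 593, 615, 373 and 516 at 6 h and 781, 963, 663 and 554 at 12 h, and these ranges overlapped. JUNB rose 1.60-fold in LacZ cells (log2 0.67 ± 0.20, limma adjusted p 0.0381), a call that 18 of 28 alternatives kept (limma adjusted p 0.0271 to 0.133). It was lost without any single LacZ 12 h array, without LacZ 6 h replicate 2 (limma adjusted p 0.0679) and without LacZ 6 h replicate 4 (0.133). It was also lost with 75th percentile scaling (0.0544), quantile normalization (0.0569), no filter (0.0583) and all probe sets (0.0782). In GPI-PLD cells its difference was 0.45 ± 0.20 and did not pass (limma adjusted p 0.171).

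JUND, the subunit most often present at a steady level in resting cells, had a narrow spread, its LacZ arrays reading 8950, 7446, 8443 and 7717 at 6 h, then 8694, 9631, 9115 and 9827 at 12 h. Its GPI-PLD arrays read 8029, 8335, 8181 and 8272 at 6 h, then 9088, 9399, 9692 and 9310 at 12 h. The GPI-PLD times did not overlap and the LacZ times did. The log2 differences were 0.20 ± 0.07 in LacZ and 0.19 ± 0.07 in GPI-PLD cells, neither past the threshold (limma adjusted p 0.118 and 0.107), with 95% intervals of 1.03 to 1.27-fold in each. Quantile normalization called the LacZ difference (adjusted p 0.0497).

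The FOS proteins cannot pair with themselves and bind DNA with a JUN partner. FOS, the classical immediate early gene, was dim at 6 h, with 22.3, 60.4, 28.8 and 22.8 in LacZ and 20.1, 26.7, 20.5 and 12.2 in GPI-PLD cells, all below the pseudocount of 63. At 12 h it read 256, 39.8, 428 and 325 in LacZ cells and 217, 338, 78.9 and 219 in GPI-PLD cells. Of the 8 arrays at 12 h, LacZ replicate 2 alone lay within the range of its 6 h group. In the fit of all probe sets FOS rose in LacZ (log2 1.56 ± 0.42, limma adjusted p 0.0454) and in GPI-PLD cells (1.65 ± 0.42, limma adjusted p 0.0258), where 1.59% and 2% of all probe sets were called higher. The call was lost in 13 of 16 fits with a single array omitted in LacZ cells and in 7 of 16 in GPI-PLD cells. The LacZ call held only without LacZ 12 h replicate 2, GPI-PLD 12 h replicate 2 or GPI-PLD 12 h replicate 3, and the GPI-PLD call was lost without any one GPI-PLD array other than 12 h replicate 3. The limma adjusted p of FOS reached 0.150 in LacZ cells (without LacZ 12 h replicate 3) and 0.0774 in GPI-PLD cells (without GPI-PLD 12 h replicate 2). FOSB, a close relative, stayed between 20.6 and 128.8 in all 16 arrays, with log2 differences of -0.01 ± 0.27 and 0.16 ± 0.27 between the times.

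FOSL1, which encodes FRA-1, a FOS protein without the strong activation domain, read 259, 274, 456 and 67 in LacZ cells at 6 h and 736, 934, 825 and 873 at 12 h. In GPI-PLD cells it read 411, 360, 263 and 526 at 6 h and 833, 779, 599 and 682 at 12 h. The times were separate in both viruses, and LacZ 6 h replicate 4 was the lowest array. FOSL1 rose 3.08-fold in LacZ cells (log2 1.62 ± 0.29, limma adjusted p 0.0007; 0.000102 to 0.00574 over 27 alternatives). In GPI-PLD cells the difference was 0.82 ± 0.29 (limma adjusted p 0.0789), and 5 of 27 alternatives called it, with limma adjusted p from 0.0114 to 0.226. Among them were the fits without LacZ 6 h replicate 3 (0.045) and without LacZ 6 h replicate 4 (0.0114), whose values enter the shared spread.

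FOSL2, which encodes FRA-2, had a different order of groups on its brightest probe set. LacZ cells at 6 h read 118, 144, 124 and 65.8, and the other groups stood higher and overlapped one another: 255, 351, 262 and 335 in LacZ cells at 12 h, 283, 348, 491 and 401 in GPI-PLD cells at 6 h, and 214, 445, 283 and 355 in GPI-PLD cells at 12 h. FOSL2 rose 2.09-fold with time in LacZ cells (log2 1.06 ± 0.29, limma adjusted p 0.0249; 0.00540 to 0.0936 over 27 alternatives, 23 of which passed). It did not pass without LacZ 12 h replicate 2 (0.081), LacZ 12 h replicate 4 (0.0679) or LacZ 6 h replicate 4 (0.0711), or when only the arrays compared were fitted (0.0936). In GPI-PLD cells the difference was -0.21 ± 0.29, with a 95% interval of 0.571 to 1.31-fold.

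MAFF, a small MAF factor known for its stress and cytokine inducibility, separated the times in both viruses. LacZ cells read 777, 567, 649 and 632 at 6 h and 1633, 2040, 1798 and 1681 at 12 h. GPI-PLD cells read 620, 763, 680 and 596 at 6 h and 1884, 1970, 1753 and 1650 at 12 h. The rise was 2.58-fold in both, with log2 differences of 1.37 ± 0.13 (limma adjusted p 9.38e-08 in LacZ and 7.46e-08 in GPI-PLD cells), and all 28 alternatives kept both calls.

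MAFG, the small MAF that most often serves as partner of NRF2, read 697, 891, 881 and 1015 in LacZ cells at 6 h and 1112, 972, 903 and 1262 at 12 h, with overlap. In GPI-PLD cells it read 821, 678, 727 and 940 at 6 h and 1376, 1877, 1467 and 1098 at 12 h, with none. MAFG rose 1.76-fold in GPI-PLD cells (log2 0.81 ± 0.16, limma adjusted p 0.00155, called in 28 of 28 alternatives). Its difference in LacZ cells was 0.27 ± 0.16 (limma adjusted p 0.373). Whether the rise differed between the viruses was tested as an interaction, at 0.54 ± 0.23 with a limma adjusted p of 0.569.

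**Figure D2:**
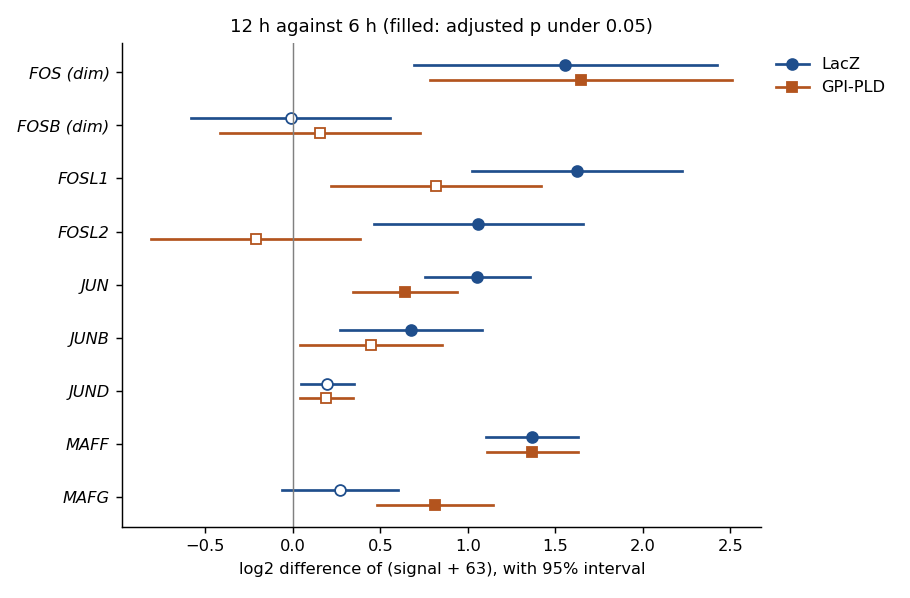
Log2 difference of (signal + 63), 12 h minus 6 h, for each member in LacZ (circles) and GPI-PLD cells (squares), with 95% intervals; filled symbols had an adjusted p under 0.05. FOS and FOSB are from the fit of all probe sets. MAFF stands at 1.37 in both viruses, while FOSL2 is at 1.06 in LacZ and -0.21 in GPI-PLD cells.

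Genes with several probe sets did not give one answer. JUN had 4, and the differences of the other 3 ran from 0.10 to 0.70 in LacZ and from 0.48 to 1.03 in GPI-PLD cells, with none called in the fit of all probe sets. The brightest JUN set and 2 of the 3 JUND sets have names ending in _x_at, which the manufacturer gives to sets whose probes may also match other transcripts. The 3 JUND sets ranged from 0.20 to 0.82 in LacZ and from 0.08 to 0.27 in GPI-PLD cells, with none called. For FOSL2 the second set agreed in LacZ cells (1.20 ± 0.30, limma adjusted p 0.0283) and stood at 0.48 ± 0.30 in GPI-PLD cells, where the brightest set had the opposite sign and the mean of the 3 sets was 0.14. On that second FOSL2 set the GPI-PLD times did not overlap, with 213.9 to 285.6 at 6 h and 319 to 415.4 at 12 h. Its LacZ 6 h arrays, at 50.3 to 291.3, overlapped those of GPI-PLD cells at 6 h. The order of groups on the brightest set was therefore not shared by the second. The dimmest FOSL2 set, below the filter, gave 0.25 ± 0.37 and 0.16 ± 0.37. The second MAFF set rose in LacZ cells (1.30 ± 0.30, limma adjusted p 0.0185), and in GPI-PLD cells its difference was 0.61 ± 0.30 (limma adjusted p 0.337). Over all 17 probe sets, 16 differences were above 0 in each virus, and 0 were called lower. Higher calls numbered 7 in LacZ and 4 in GPI-PLD cells, beside 1.59% and 2% of all 22215 probe sets.

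**Figure D3:**
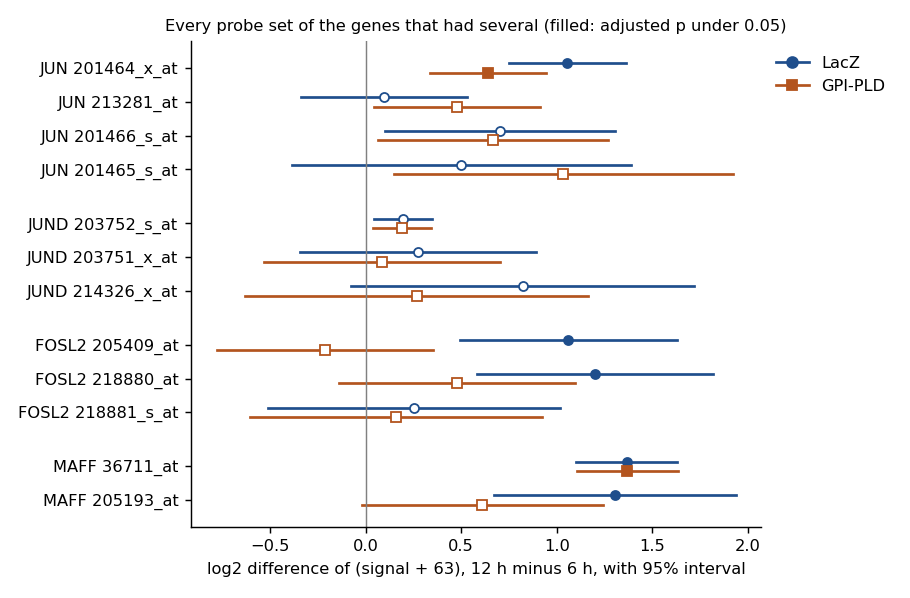
Log2 difference of (signal + 63), 12 h minus 6 h, for each probe set of JUN, JUND, FOSL2 and MAFF, in LacZ (circles) and GPI-PLD cells (squares), with 95% intervals from the fit of all probe sets; filled symbols had an adjusted p under 0.05. The sets of a gene are ordered from the highest mean down, and the 3 fainter JUN sets have no filled symbol.

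Between the viruses no member was called at either time, as was the case for 0 of 8102 genes (0.0%) at 6 h and at 12 h by limma (376 and 584 at an unadjusted p under 0.05). When eBayes was run plainly, with neither trend nor robust, 2 genes passed at 6 h, 1 of them FOSL2 (limma adjusted p 0.0318). At 6 h the members' differences, GPI-PLD minus LacZ, had a median of 0.29, against 0.00 for all tested genes, and 6 of 7 were above 0. Over all 17 member probe sets the median was 0.12, and 11 were above 0. FOSL2 had the highest, at 1.34 ± 0.29 with a 95% interval of 1.67 to 3.82-fold and a limma adjusted p of 0.328. It was the 1 member of 7 whose groups did not overlap, which held for 1.47% of all tested genes in the higher and 1.56% in the lower direction. A second FOSL2 probe set gave 0.73 ± 0.30 and the dim one -0.05 ± 0.37, and the mean of the 3 gave 0.67. The brightest set gave 0.79 with 4 times the pseudocount and 1.78 with none. That FOSL2 value was among the results that led to the choice of the family.

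The other differences at 6 h were 0.60 ± 0.29 for FOSL1, 0.38 ± 0.14 for JUN, 0.29 ± 0.20 for JUNB, 0.02 ± 0.07 for JUND, 0.02 ± 0.13 for MAFF and -0.13 ± 0.16 for MAFG. The FOSL1 value fell to 0.21 without LacZ 6 h replicate 4, in which FOSL1, FOSL2 and JUNB had their lowest signal of that group. That array was the lowest of its group for 3 of the 7 members and for 25.9% of all tested genes. LacZ 6 h replicate 2 was also the lowest for 3 of the 7, and for 21.3% of all tested genes. Over the 17 probe sets replicate 4 was the lowest in 7 and replicate 2 in 3. The other JUN probe sets gave 0.12 ± 0.29, -0.17 ± 0.21 and -0.09 ± 0.43, so the direction of the JUN difference was not shared by its sets, and their mean gave 0.06. FOS stood at -0.21 ± 0.42 and FOSB at -0.18 ± 0.27, both from signals under the filter.

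At 12 h the members had a median difference of 0.02 between the viruses. The groups were apart for 0 of 7, beside 2.14% of all tested genes apart in the higher and 1.85% in the lower direction. MAFG had the largest difference, 0.42 ± 0.16 (95% interval 1.06 to 1.68-fold, limma adjusted p 0.638). MAFF (0.02 ± 0.13), JUND (0.01 ± 0.07), JUN (-0.04 ± 0.14), JUNB (0.06 ± 0.20), FOSL2 (0.06 ± 0.29) and FOSL1 (-0.21 ± 0.29) had intervals that reached from 0.571 to 1.58-fold between them. The narrowest was that of JUND, 0.907 to 1.12-fold.

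The difference between the 2 virus effects (12 h minus 6 h) was called for 0 of 7 members and for 1 of all tested genes (0.0123%). It was -1.27 ± 0.41 for FOSL2 (limma adjusted p 0.466), -0.81 ± 0.41 for FOSL1 and -0.41 ± 0.20 for JUN, with MAFG at 0.54 ± 0.23 in the other direction and MAFF at 0.00 ± 0.18. For FOSL2 it was -0.70 by the mean of its probe sets, -0.74 with 4 times the pseudocount and -1.71 with none. For JUN the direction turned by the mean of its probe sets (0.12), and 2 of its 3 other sets stood at 0.38 and 0.53. So the calls of FOSL1, FOSL2 and JUNB in LacZ cells alone, and of MAFG in GPI-PLD cells alone, were not shown to differ between the viruses. These contrasts share arrays, since the LacZ 6 h arrays enter both the time difference in LacZ cells and the virus difference at 6 h.

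**Figure D4:**
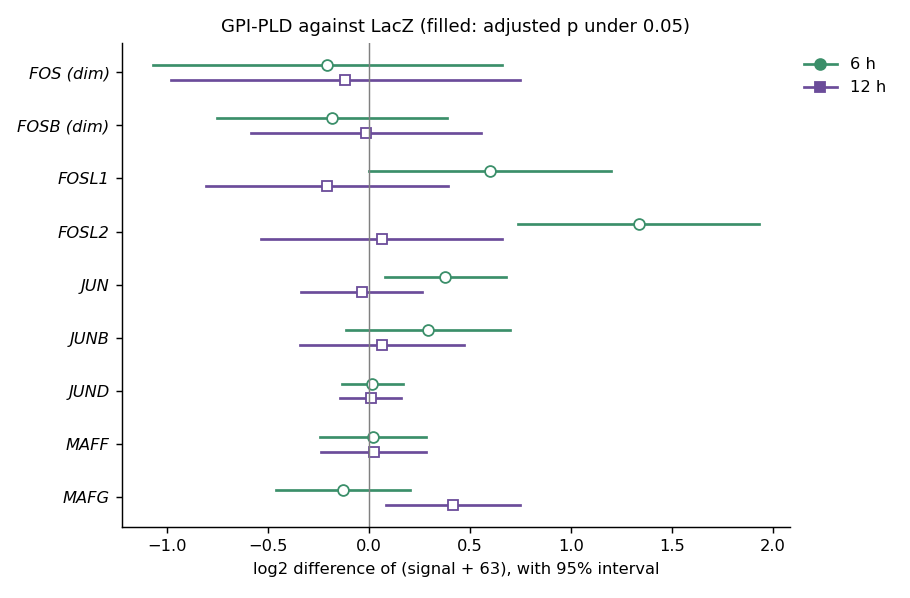
Log2 difference of (signal + 63), GPI-PLD minus LacZ, for each member at 6 h (circles) and 12 h (squares), with 95% intervals; open symbols did not pass an adjusted p of 0.05, and no symbol is filled. FOSL2 at 6 h stands at 1.34, and the 12 h values lie between -0.21 and 0.42.

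The related lists were also chosen with earlier results known, and their counts of higher calls stand beside shares of 3.64% (LacZ) and 4.6% (GPI-PLD) over all tested genes, with an all-gene median of 0.01 in each. Of 12 listed bZIP genes, whose proteins pair with AP-1 subunits, 8 were tested, and 5 rose in LacZ and 5 in GPI-PLD cells, with medians of 0.55 and 0.75. They were CEBPB, DDIT3, ATF3, ATF4 and CEBPG in each virus, while ATF2, ATF5 and BATF passed in neither. CEBPB, a liver-enriched C/EBP factor, had group means of 5803 at 6 h and 23930 at 12 h in LacZ cells and of 7178 and 23413 in GPI-PLD cells (log2 2.03 ± 0.08 and 1.71 ± 0.08). ATF3, a stress-induced partner of JUN proteins, rose by 1.76 ± 0.18 and 2.17 ± 0.18. ATF4, the translationally controlled factor of the integrated stress response, rose by log2 0.58 ± 0.09 in LacZ and 0.62 ± 0.09 in GPI-PLD cells, and CEBPG, a C/EBP protein that pairs with it, by 0.52 ± 0.13 and 0.75 ± 0.13. Between the viruses 0 of the 8 were called at either time, with CEBPB at 0.30 ± 0.08 at 6 h and DDIT3, which encodes CHOP, at 0.34 ± 0.14 at 12 h.

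The list of partners of small MAF proteins and large MAF genes also held KEAP1, which is neither. Of its 11 genes 5 were tested: NFE2L1, NFE2L2, NFE2L3, BACH1 and KEAP1, with no large MAF gene among them. NFE2L2, which encodes NRF2, rose in LacZ (5244 to 7878, log2 0.58 ± 0.07, limma adjusted p 4.61e-06) and in GPI-PLD cells (4843 to 7691, 0.66 ± 0.07, limma adjusted p 6.08e-07). NFE2L1, a relative that controls proteasome genes, rose in GPI-PLD cells (0.60 ± 0.14, limma adjusted p 0.00646), as did BACH1, a repressor that competes with NRF2 for small MAF partners (0.69 ± 0.17, limma adjusted p 0.00943). The 5 had a median of 0.02 under LacZ and of 0.60 under GPI-PLD. These medians include KEAP1, at -0.05 ± 0.12 in LacZ and -0.10 ± 0.12 in GPI-PLD cells. Between the viruses NFE2L1 stood at 0.53 ± 0.14 at 12 h, with a limma adjusted p of 0.369. Its groups did not overlap, which held for 2.14% of all tested genes in the higher direction at 12 h. No gene of this list had a called interaction, the smallest adjusted p being 0.466 for NFE2L1.

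Of 28 tested kinases and factors upstream of AP-1, 1 rose in LacZ cells, where 3.64% of all tested genes were called higher. It was MAPK3, which encodes ERK1 (0.84 ± 0.24, limma adjusted p 0.0342). In GPI-PLD cells 0 rose, beside 4.6% of all, and the medians of the 28 were 0.11 and 0.08. The smallest p in GPI-PLD cells was that of RPS6KA3, the kinase RSK2, at 0.18 ± 0.08, which was not called. These are transcript levels, and the activity of the kinases was not measured. Among 9 regulators of JUN and FOS protein, ITCH, a ubiquitin ligase of JUN proteins, rose in GPI-PLD cells (0.65 ± 0.11, limma adjusted p 0.000373) and was at 0.31 ± 0.11 in LacZ cells.

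Of 17 tested AP-1 target genes, 5 rose in LacZ cells (VEGFA, IER3, DUSP1, SPP1 and LIF) and 6 in GPI-PLD cells (the same 5 and CXCL8), beside 3.64% and 4.6% of all tested genes. Their medians were 0.41 in each virus, beside 0.01 over all. IER3, an early response survival gene, rose by 1.20 ± 0.09 and 1.39 ± 0.09, DUSP1, a MAP kinase phosphatase, by 1.09 ± 0.10 and 1.30 ± 0.10, and LIF, an interleukin-6 family cytokine, by 0.95 ± 0.20 and 1.40 ± 0.20. The cyclin gene CCND1 fell in GPI-PLD cells (1363 to 914, log2 -0.58 ± 0.18, limma adjusted p 0.0454), the 1 lower call of the list, beside 5.07% of all tested genes lower there and 3.25% in LacZ cells. Many of these genes answer to other factors as well, and which factor acted on them was not measured. At 6 h TGFB1, a growth factor gene, had the smallest p of the list between the viruses (0.69 ± 0.23, limma adjusted p 0.963).

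Of 12 tested NRF2 and small MAF target genes, 8 rose in LacZ and 7 in GPI-PLD cells, beside 3.64% and 4.6% of all tested genes. Their medians were 0.64 in each virus, beside 0.01 over all. GCLC, the catalytic subunit of glutathione synthesis, rose by 1.45 ± 0.10 in both, TXNRD1, the thioredoxin reductase, by 0.96 ± 0.09 and 1.13 ± 0.09, and GCLM, the partner subunit of GCLC, by 0.96 ± 0.15 and 1.29 ± 0.15. HMOX1, heme oxygenase, rose in LacZ cells by 0.66 ± 0.18. In GPI-PLD cells its difference was 0.55 ± 0.18 and did not pass (limma adjusted p 0.0597). SLC7A11, ABCC2, NQO1 and OSGIN1 rose in both. Between the viruses 0 of the 12 were called at 6 h or 12 h.

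**Figure D5:**
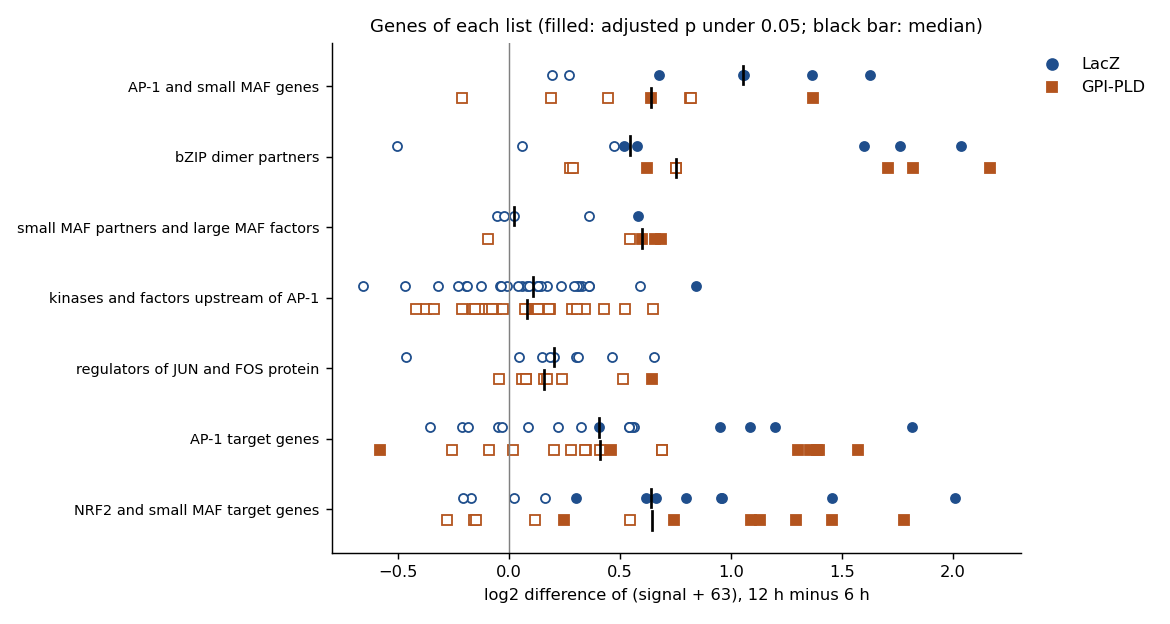
Log2 difference of (signal + 63), 12 h minus 6 h, for each tested gene of the AP-1 and small MAF family and of 6 related lists, in LacZ (circles) and GPI-PLD cells (squares); filled symbols had an adjusted p under 0.05 and black bars are medians. The kinases and upstream factors lie around medians of 0.11 and 0.08, while the NRF2 and small MAF targets have medians of 0.64.

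Each tested member was set against every other tested gene by the root mean square difference of their centred log2 values over the 16 arrays, which is smaller for a closer course. MAFF was nearest to PIM1 (0.131), DNAJB9 (0.149) and DUSP1 (0.160), while its own values spread by 0.695. JUN was nearest to EGR1 (0.173), CCDC59 (0.174) and GFPT1 (0.176). FOSL2 was nearest to TGFB1 (0.329), ANPEP (0.389) and STX5 (0.400), less close relative to its own spread of 0.578, and FOSL1 to KCNMB3 (0.377), TRIB3 (0.399) and SPRY4 (0.409). JUNB was nearest to MAN2C1 (0.188), JUND to IPO7 (0.0645) and MAFG to IKBKG (0.194). The nearest fellow members were JUNB with JUND (0.308), MAFG with JUND (0.321) and JUN with MAFF (0.342), and none of the 7 had another member among its 3 nearest genes. Genes with a small spread lie near one another by this measure, and all values share the same 16 arrays.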

How the data were processed

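The authors deposited MAS5 signals, a linear intensity per probe set, for 16 arrays of HepG2 cells, each from 10 microgram of RNA per the labels. MAS5 is named in the submitters' processing notes, and the scanner and further steps are not given in the sources used here. The 2% trimmed mean of the deposited intensities was 1000.3 to 1000.4 in every array, so no rescaling was applied. Genes were named from the 2016 platform annotation, with 19065 probe sets of 1 symbol. Replicates were numbered in deposited order. The members and the gene lists were chosen with earlier results of these data known.

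Values were log2(signal + 63), where 63 was the 20th percentile of the deposited signals. A gene with several probe sets was represented by the one of highest mean log2 value, and genes whose mean lay under the 40th percentile (signal 188) were left untested. Group means of the 4 groups were fitted by limma 3.58.1 (R 4.3.3, statmod 1.5.0), using eBayes with trend and robust on 12 residual degrees of freedom. The steps were tested on simulated data. From each list up to 4 called genes with the smallest p in a contrast could be named, or 2 where none was called. ATF5, CEBPG, KEAP1, CCND1, HMOX1, NQO1, OSGIN1, DCN and the dim cell type markers were named in addition, after their values were seen. Alternatives were other scalings, pseudocounts, filters, probe set rules and fits, and each array left out. Python 3.11.15, pandas 2.3.3, scipy 1.17.1 and matplotlib 3.10.9 were used.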

Additional observations from a re-analysis of the deposited data

Results flagged for a closer look

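In 3 of the 68 sets of 4 arrays (17 probe sets in 4 groups) 1 array stood far from the other 3, where chance gives about 1 in 20. On the second MAFF probe set LacZ 6 h replicate 4 read 107.3, against 463.8 to 513 in the rest of its group, and GPI-PLD 12 h replicate 2 read 554.2, against 840 to 892. On the dimmest JUND probe set LacZ 6 h replicate 4 read 46.8, against 375.6 to 448.6. LacZ 6 h replicate 4 is therefore in 2 of the 3. On the brightest MAFF and JUND probe sets, which stand for these genes above, the same array read 632 and 7717, inside the range of its group.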

How the results depend on the processing

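No paired analysis was possible because the labels give no replicate numbers. Of the counts of called members, that in LacZ cells with time was 3 under the 60th percentile filter, where 5 members were tested, and 3 to 5 with single arrays left out. In GPI-PLD cells it was 3 to 4. At 6 h 1 member and 2 of all genes were called between the viruses by the fit without trend and robust, and 0 with single arrays left out. At 12 h the count of all genes was 3 without GPI-PLD 12 h replicates 2 and 4 and 0 to 2 with single arrays left out (2 without GPI-PLD 12 h replicate 2, 1 without replicate 1, 3 or 4 of that group). The interaction count of all genes was 2 with 4 times the pseudocount, with the 60th percentile filter and without those 2 arrays, 0 with 75th percentile scaling, quantile normalization, all probe sets, no filter, or without trend and robust, and 0 to 3 with single arrays left out, reaching 3 when replicate 1 of LacZ 6 h, replicate 1 of GPI-PLD 6 h or replicate 2 of GPI-PLD 12 h was omitted. No called member difference changed sign. The number of arrays and the dimness of FOS and FOSB limit the precision.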
